A study of Mus musculus with 27 samples.

Results

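Hearts at mid-gestation were set against adult hearts at matched sequencing depth. The comparison took every library of embryonic day E13.5 and every library of sham-operated adults, 11 of the 27 libraries in the series, 7 embryonic and 4 sham. Each library was 1 heart of a C57BL/6J mouse, an inbred laboratory strain. The embryonic libraries came from whole hearts with atria, valves, epicardium and the blood they held, and the sex of the embryos is given as unknown. The sham libraries came from the ventricular apex alone, taken at 12 weeks of age from mice that had undergone the sham form of the operation used elsewhere in the series to constrict the aorta for 4 weeks, and all 4 are labelled male. The part of the heart sampled, and the operation, therefore go with age and cannot be told apart from it. Total counts ran from 7543375 to 12646039 in the embryonic libraries and from 7958592 to 11561952 in the sham libraries, and both groups carry the same base quality encoding in the labels. Unoperated adults of 6 and 16 weeks (12 libraries, with totals of 2092270 to 2682955) entered only as a second reference near the end.

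Some libraries went against their labels or stood apart. Counts of 4 Y-linked genes summed to 663 and 812 in sham hearts 1 and 4, and to 0 and 2 in sham hearts 2 and 3, although all 4 are labelled male. The same sum was 690 and 826 in embryonic hearts 3 and 6, and 0 to 6 in the other embryonic hearts. The unoperated adults are labelled male too. Their sum was 0 and 1 in hearts 1 and 6 of 6 weeks, 0 in hearts 1 and 6 of 16 weeks, and 101 to 219 in the others. Sham heart 2 also had 1.77% of its counts in mitochondrially encoded genes, against 5.67% to 6.44% in the other sham hearts and 0.23% to 0.73% in the embryonic hearts. Embryonic heart 3 held high levels of some genes of nerve and epithelium, such as Chga at 78.4 CPM against a median of 0.77 and Krt5 at 44.2 against 1.44. Embryonic heart 4 held the most globin, and embryonic heart 2 the most C3 (156 CPM, median 4.14). These genes were singled out after their values were seen. Without sham hearts 2 and 3, 7248 features were called higher and 6560 lower, beside 7597 and 6657 with all libraries. On principal components of log2 CPM the first axis held 88.3% of the variance and separated the groups, and the second held 2.15%.

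A heart at E13.5 beats and pumps while its muscle cells still divide. Its fuel is mostly glucose and lactate, its sarcomeres are built partly from isoforms that the adult ventricle no longer uses, and the oxygen in its blood is carried by embryonic as well as adult globins. After birth the muscle cells leave the cell cycle, oxidise fatty acids in abundant mitochondria, and acquire the calcium stores, ion channels and Z disc proteins of a fast-beating adult heart.

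The sequences below show the promoters of genes from 3 gene groups that moved largely in one direction, mitosis and DNA replication (higher at E13.5) and oxidative phosphorylation (lower at E13.5), with the short motifs known for each group. They are RefSeq promoters on GRCm38.p6, from 250 bases before to 50 bases after the annotated start, written 5′ to 3′ on the gene's strand. Capitals mark matches on either strand to CCAAT (the site of the factor NF-Y), TTTGAA (the element of mitotic genes bound by the DREAM and MuvB complexes), TTTCCCGC, TTTGGCGC or TTTCGCGC (words of the E2F type), and the site of the nuclear respiratory factor NRF1 (GCGCA, any base, GCGC). Ect2, which directs the cleavage furrow in cytokinesis, lies at chr3:27153829-27154128 on the minus strand, and Bub1b, a kinase of the spindle checkpoint, at chr2:118597961-118598260 on the plus strand. Cdc6, which loads the replicative helicase, lies at chr11:98907901-98908200 on the plus strand, and Ndufa5, a subunit of respiratory complex I, at chr6:24527477-24527776 on the minus strand.
Ect2: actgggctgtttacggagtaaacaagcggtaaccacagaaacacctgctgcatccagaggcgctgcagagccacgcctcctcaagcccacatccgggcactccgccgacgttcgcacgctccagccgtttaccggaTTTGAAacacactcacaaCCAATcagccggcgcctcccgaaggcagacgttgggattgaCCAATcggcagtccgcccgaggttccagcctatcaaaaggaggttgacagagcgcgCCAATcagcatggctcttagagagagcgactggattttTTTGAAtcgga
Bub1b: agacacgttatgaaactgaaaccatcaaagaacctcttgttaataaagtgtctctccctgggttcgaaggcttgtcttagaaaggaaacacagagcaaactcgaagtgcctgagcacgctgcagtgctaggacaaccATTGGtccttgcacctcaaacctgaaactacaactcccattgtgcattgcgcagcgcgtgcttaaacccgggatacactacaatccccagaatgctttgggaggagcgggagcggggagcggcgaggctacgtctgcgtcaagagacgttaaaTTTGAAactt
Cdc6: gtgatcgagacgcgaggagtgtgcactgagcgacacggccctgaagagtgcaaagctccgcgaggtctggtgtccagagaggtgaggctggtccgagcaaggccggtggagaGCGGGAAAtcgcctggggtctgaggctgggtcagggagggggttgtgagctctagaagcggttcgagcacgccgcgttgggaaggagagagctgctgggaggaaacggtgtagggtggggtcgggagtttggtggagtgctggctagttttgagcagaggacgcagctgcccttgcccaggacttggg
Ndufa5: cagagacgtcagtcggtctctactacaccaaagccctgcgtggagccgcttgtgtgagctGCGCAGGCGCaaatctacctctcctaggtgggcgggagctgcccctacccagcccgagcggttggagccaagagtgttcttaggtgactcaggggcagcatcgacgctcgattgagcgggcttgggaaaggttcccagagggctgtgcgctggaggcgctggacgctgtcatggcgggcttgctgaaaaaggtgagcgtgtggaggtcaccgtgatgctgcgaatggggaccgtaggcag

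Of the 33 promoters found for 29 of the 35 listed mitosis genes, 78.8% held CCAAT and 69.7% held TTTGAA, beside 37.4% and 17.9% of all 32851 promoters in the table. For DNA replication (30 promoters of 25 of 32 genes), 12 (40%) held an E2F-type word, beside 1.84% of all promoters and 3.03% of mitosis promoters. The NRF1 site was present in 11 (25%) of 44 promoters of oxidative phosphorylation genes (40 of 53 genes matched), beside 4.60% of all promoters, and in 5.56% of 36 promoters of fatty acid genes. TCAAGGTCA, the site of oestrogen-related receptors, was in 2 of 44 oxidative phosphorylation promoters, 2 of 35 thick and thin filament promoters, 0 of 36 fatty acid promoters and 0.423% of all. The NRF1 site, TTTGGCGC and TTTCGCGC can share letters, and a promoter may hold more than 1. A match describes these 300 bases and is not a measurement of binding.

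Of 18677 features that passed the filter on low counts, 7597 (40.7%) were higher at E13.5 and 6657 (35.6%) lower at an adjusted p under 0.05 in edgeR's quasi-likelihood test, so 76.3% differed in one direction or the other. Among the 12950 coding genes tested, 5228 (40.4%) were higher and 5303 (40.9%) lower. For 11824 features (63.3%) no embryonic library overlapped a sham library. Changes of at least 2-fold made up 4672 of the higher and 3718 of the lower calls, and changes of at least 32-fold 541 and 233. With most of the transcriptome different, a call for a single gene says little. The size of its change, and the direction shared by its group, are therefore given, and the calls of each group are to be read beside these shares. CPM is used here for counts relative to the library total, as edgeR gives them, after scaling with TMM factors, which were 1.198 to 1.265 in the embryonic and 0.678 to 0.723 in the sham libraries. The 20 features with most counts took 10.9% to 14.9% of each embryonic library and 22.8% to 25.8% of each sham library. With total counts and no scaling factor, the median log2 fold change of all features shifted by 0.82, and 12675 features were higher and 3279 lower. Higher features were then 79.4% of calls, against 53.3% with TMM. With upper-quartile scaling the shift was 0.16 and they were 59.5%. Below, a value with ± SE or in brackets with ± is the fitted log2 fold change of E13.5 against sham hearts, and genes called higher or lower passed the adjusted p under 0.05. A ratio with an interval is given where a group held 1 to 3 counts. Directions below hold under TMM, and a list whose median changes sign under another scaling is marked as such. A pair of numbers marked unscaled gives a list's higher and lower calls with total counts and no scaling factor, where that moved the split of calls by over 10 percentage points.

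**Figure D1:**
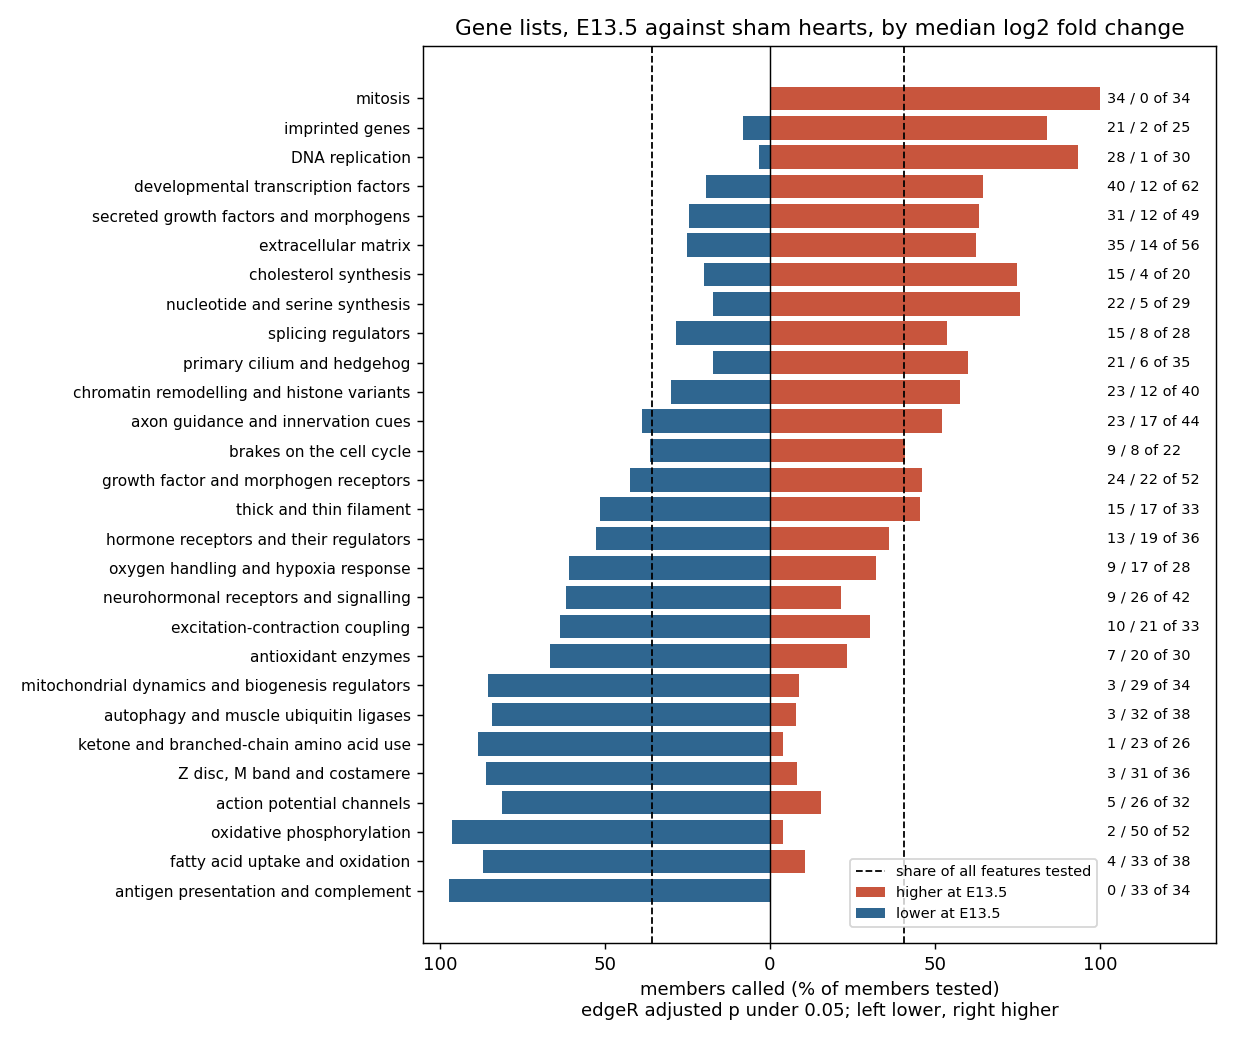
Share of tested members called higher (right, red) or lower (left, blue) at E13.5 for each gene list, ordered by median log2 fold change, with counts higher and lower of those tested at the right; dashed lines mark the 40.7% and 35.6% of all 18677 features tested. Mitosis (34 of 34 higher) and antigen presentation and complement (33 of 34 lower) stand at the 2 ends.

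Genes of cell division were higher in the embryonic heart. All 34 tested mitosis genes were higher at E13.5 (background 40.7%), with a median log2 fold change of 5.10, and their summed counts made up 0.309% ± 0.0144 of embryonic libraries (SD, n = 7) against 0.00773% ± 0.00106 of sham libraries (SD, n = 4). Bub1b stood at 116 CPM in the lowest, 132 in the median and 141 in the highest embryonic heart, and at 2.73, 2.56, 1.67 and 2.0 in sham hearts 1 to 4. All embryonic hearts were close together and far above all sham hearts, with a log2 fold change of 5.84 ± 0.12 (SE; adjusted p = 2.89e-19). Ect2 ran from 35.5 through a median of 47.3 to 52.6 CPM at E13.5 and was at 0.409, 0.71, 0.556 and 1.25 in the sham hearts, again without overlap, and rose by 5.87 ± 0.21 on the log2 scale. Ccnb1, the cyclin that drives entry into mitosis, was 5.96 ± 0.39 higher, and Birc5 (survivin), a member of the chromosomal passenger complex, 5.71 ± 0.19 higher. Cdc25c, the phosphatase that activates the mitotic kinase, had 1 count in all sham libraries together, a ratio of 367 (95% interval 65.6 to 14489).

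Replication genes moved with them. Of 30 tested, 28 were higher and 1 lower, with a median of 2.72. Cdc6 had 20.2, 26.3 and 30.7 CPM in the lowest, median and highest embryonic heart and 0.954, 1.56, 1.85 and 0.63 in the sham hearts. Its change of 4.43 ± 0.20 was exceeded by Mcm10, which recruits polymerase to the fork (5.28 ± 0.18), and followed by Gins2, a subunit of the replicative helicase (4.18 ± 0.15, with 32.7% of its exonic bases free of other features). Cdc7 and Dbf4, the kinase and its activator that fire origins, were 3.93 ± 0.16 and 3.86 ± 0.20 higher.

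Brakes on the cell cycle were higher in 9 of 22 and lower in 8 (unscaled 15 and 4), with a median of 0.14. This is close to all features, with 40.7% higher, 35.6% lower and a median of 0.12, so the list as a whole gave no direction. Cdkn1c (p57), an imprinted inhibitor of cyclin-dependent kinases, was at 501 CPM in the lowest, 559 in the median and 857 in the highest embryonic heart, and at 29.9, 24.9, 24.8 and 27.4 in the sham hearts. It was 4.48 ± 0.16 higher at E13.5 although its product restrains division, and embryonic heart 2 held the highest level. Rbl1 (p107), a relative of the retinoblastoma protein made in cycling cells, was 3.12 ± 0.13 higher. Ccng1 (-2.96 ± 0.09) and Gadd45a (-2.08 ± 0.20), both targets of p53, and Trp53inp2 (-2.35 ± 0.06), which promotes autophagy, were lower. Cdkn1b (p27) gave 60.1 ± 7.31 CPM at E13.5 (SD, n = 7) and 58.7 ± 7.02 in sham hearts (SD, n = 4), a difference of 0.04 ± 0.10 that did not pass the test.

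Precursors for growth followed the same direction. Among genes of nucleotide and serine synthesis 22 of 29 were higher and 5 lower (unscaled 28 and 0, with upper-quartile scaling 22 and 1; median 1.09). Rrm2, the regulated subunit of ribonucleotide reductase, ran from 44.3 to 62.4 CPM (median 57.8) at E13.5 and was at 2.18, 1.99, 0.741 and 2.0 in sham hearts. All embryonic hearts lay above the sham hearts, and the change was 4.94 ± 0.17. Phgdh (4.19 ± 0.20) and Psat1 (3.23 ± 0.12), the opening steps of serine synthesis, and Mthfd1l (3.42 ± 0.12), which releases formate from mitochondria, were higher as well. Tyms, which makes thymidylate, was 3.53 ± 0.38 higher with 37.6% of its exonic bases to itself. For cholesterol synthesis 15 of 20 were higher and 4 lower (unscaled 18 and 0; median 1.12). Sqle, the epoxidase that commits squalene to sterols, ran from 29.7 to 42.6 CPM (median 35.0) at E13.5 and was at 2.18, 0.994, 2.41 and 0.63 in sham hearts, a change of 4.52 ± 0.21 with no overlap of the groups. Srebf2, the factor that switches these genes on, was 1.82 ± 0.08 higher.

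**Figure D2:**
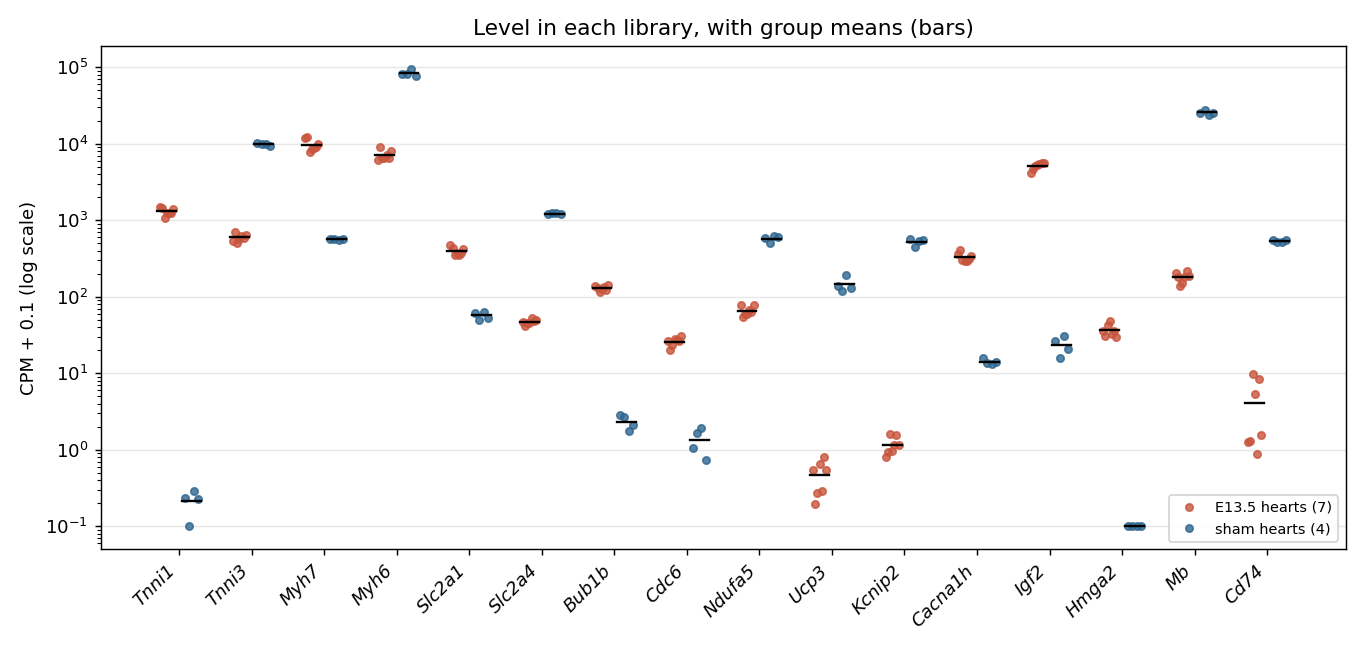
CPM plus 0.1 on a log axis for 16 genes, one point per library (7 embryonic hearts in red, 4 sham hearts in blue) with a bar at the group mean. Embryonic and sham points do not overlap for any of the 16, and Hmga2 has no count in any sham heart.

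Contractile genes changed by isoform. Of 33 tested thick and thin filament genes 15 were higher and 17 lower, with a median of -0.30 that turned to 0.52 without a scaling factor, so the list as a whole gave no direction while its members moved far apart. The list held 12.9% ± 0.527 of counts in sham hearts (SD, n = 4) and 5.78% ± 0.490 at E13.5 (SD, n = 7). Slow skeletal troponin I, Tnni1, the embryonic inhibitor subunit of the thin filament, was at 1086, 1264 and 1476 CPM in the lowest, median and highest embryonic heart, and at 0.136, 0, 0.185 and 0.125 in the sham hearts. Its 3 sham counts against 110042 embryonic counts gave a ratio of 12166 (95% interval 4163 to 58997). The cardiac form that replaces it, Tnni3, was at 512, 592 and 701 CPM at E13.5 and at 10091, 9953, 9963 and 9333 in the sham hearts (-4.04 ± 0.08). Per kilobase, Tnni3 made up 26.5% ± 1.95 of the pair at E13.5 (SD, n = 7) and 100% in sham hearts to the rounding used.

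The myosin heavy chains followed the same course. Myh7, the slow beta chain, ran from 7854 through 9062 to 12123 CPM in embryonic hearts and was at 566, 565, 559 and 569 in sham hearts (4.11 ± 0.13). Myh6, the fast alpha chain, ran from 6121 through 6530 to 9119 and was at 80507, 82058, 95550 and 77568 (-3.55 ± 0.10). Both were abundant at E13.5, where Myh6 held 43.9% ± 4.08 of the pair per kilobase, and Myh6 held 99.4% ± 0.0597 in sham hearts. Embryonic skeletal myosin Myh3 had 2 sham counts (ratio 82.9, 95% interval 22.8 to 687), with embryonic heart 3 at 15.8 CPM and the others at 1.04 to 6.62.

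Light chains of the atria were high in the whole embryonic heart. Myl7 stood at 912, 1093 and 1385 CPM (lowest, median, highest) against 0, 0.57, 0.37 and 0.25 in sham apexes (11.83 ± 0.23). Myl4, with only 29.3% of its exonic bases to itself, was 8.64 ± 0.16 higher, and Mybphl, an atrial relative of myosin binding protein C, 6.69 ± 0.32 higher. The ventricular light chains Myl2 (-2.18 ± 0.09) and Myl3 (-2.49 ± 0.13) were lower, and Myl2 held 45.1% ± 4.37 of its pair with Myl7 at E13.5. Atria were in the embryonic samples and absent from the sham samples, so isoform change within a chamber and the presence of another chamber cannot be told apart for these genes. Tnnt1 rose by 2.95 ± 0.16 and cardiac Tnnt2 was lower (-2.16 ± 0.07), yet Tnnt2 remained 94.0% ± 0.668 of that pair at E13.5. Cardiac actin Actc1 was at 8130 ± 800 CPM at E13.5 and 18106 ± 227 in sham hearts (-1.16 ± 0.07), and counts of actin genes are uncertain where reads match their processed copies. Myl1, the fast skeletal light chain, was at 18.8 ± 3.08 and 18.1 ± 3.33 CPM, a difference of 0.05 ± 0.13 that did not pass the test.

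Z disc, M band and costamere genes, which anchor the filaments and tie them to the membrane, were lower as a group at E13.5, with 31 of 36 lower, 3 higher (unscaled 8 and 27) and a median of -2.19. Myot (myotilin) was at 0 to 0.154 CPM in the embryonic hearts and at 53.7, 37.1, 58.7 and 59.3 in the sham hearts (-9.50 ± 0.24). Xirp2, which binds actin at the intercalated disc, had 1.29, 2.16 and 3.16 CPM in the lowest, median and highest embryonic heart and 1075, 805, 1105 and 1180 in the sham hearts (-8.85 ± 0.15). Myom2 of the M band was lower by a similar margin (-8.11 ± 0.24), as were the laminin receptor subunit Itga7 (-6.93 ± 0.13) and the titin cap Tcap (-6.15 ± 0.20). Sham heart 3 had the lowest Tcap of the 4, 2491 CPM against 3596 to 4356. Flnc (filamin C) did not pass the test, at 1629 ± 175 CPM in embryonic and 1836 ± 168 in sham hearts (-0.17 ± 0.08). Without embryonic heart 2 or without sham heart 4 it did pass, at -0.24 (adjusted p = 0.00849) and -0.22 (adjusted p = 0.0377). Mylk4, a myosin light chain kinase family member, was at most 0.385 CPM at E13.5 and between 163 and 171 in sham hearts (-10.06 ± 0.17).

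Paired isoforms of one function showed how far the switch reached. In 39 listed pairs the first member was known or proposed from fetal or proliferating tissue. The second was known from adult heart or was only the usual counterpart of the first. Per kilobase, the second held a larger share in every sham heart than in every embryonic heart for 33 pairs and a smaller share for 1. The larger member was the first at E13.5 and the second in sham hearts for 16 pairs, the second in both groups for 20 (Ckb/Ckm only because Ckb, with 0.1% of its bases its own, had no count in any of these libraries), and the first in both for 3, among them Igf2 over Igf1 and Thra over Thrb. A share within a library does not depend on the scaling factor. The pairs were listed with this kind of switch in mind and are not a sample of all genes.

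**Figure D3:**
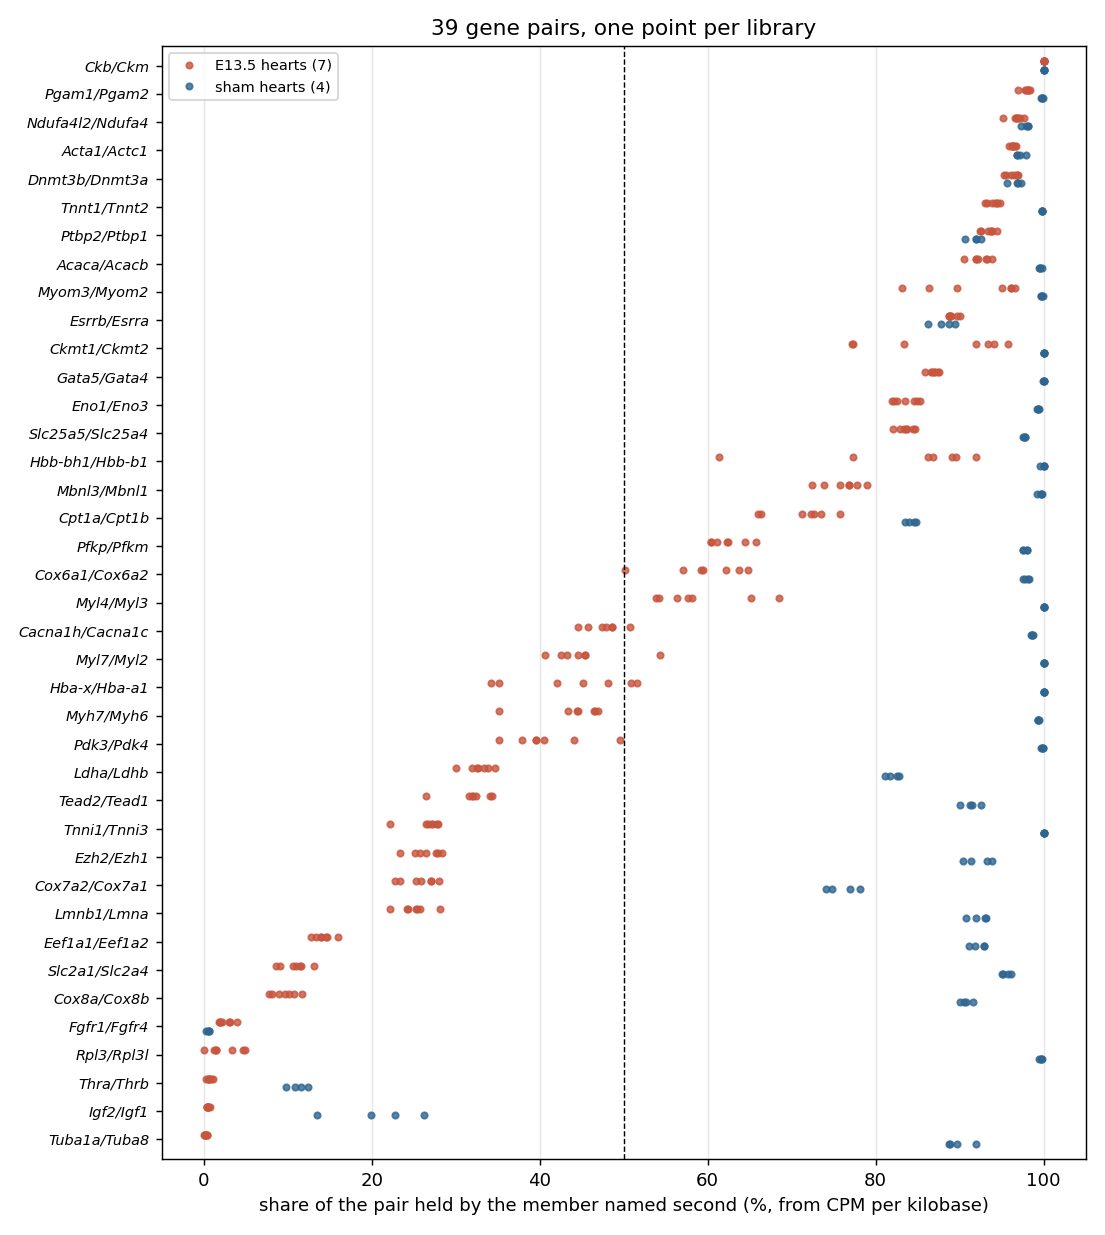
Share of each gene pair held by the member named second, from CPM per kilobase of own exonic bases, one point per library (7 embryonic hearts in red, 4 sham hearts in blue), with a dashed line at equal shares. In 33 of 39 pairs every sham point lies to the right of every embryonic point. Ckb gave no count, so Ckb/Ckm sits at 100% in both groups.

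Beyond the sarcomere, the pairs that crossed the midpoint included the glucose carriers, where the insulin-regulated Slc2a4 went from 10.8% ± 1.51 of the pair at E13.5 to 95.6% ± 0.485 in sham hearts. Ldhb, the lactate dehydrogenase subunit of oxidative muscle, went from 32.7% ± 1.51 to 82.0% ± 0.766. The muscle forms of cytochrome oxidase subunits went from 9.57% ± 1.42 to 90.7% ± 0.663 (Cox8b) and from 25.6% ± 1.97 to 76.0% ± 1.84 (Cox7a1). Translation factors and ribosomes were not exempt. Eef1a2, the elongation factor of muscle and neurons, went from 14.2% ± 1.07 to 92.2% ± 0.871 of its pair with Eef1a1, and Rpl3l, the ribosomal protein of striated muscle, from 2.41% ± 1.86 to 99.7% ± 0.163 of its pair with Rpl3, both pairs with uncertain counts because Eef1a1 and Rpl3 have near-identical processed copies. In the nucleus, Ezh1 went from 26.4% ± 1.81 to 92.3% ± 1.64 of the pair with the histone methyltransferase Ezh2, and lamin A from 25% ± 1.80 to 92.2% ± 1.09 of the pair with Lmnb1. Tead1 went from 31.8% ± 2.60 to 91.4% ± 1.01 of its pair with Tead2, both partners of the Hippo pathway factor YAP.

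The 2 members of a pair did not move alike. Tead2 was 4.2 ± 0.09 higher at E13.5 while Tead1 was only slightly lower (-0.31 ± 0.07), and Lmnb1 was 4.26 ± 0.10 higher while Lmna was lower (-0.89 ± 0.09). For Slc2a1 and Slc2a4 both moved, by 2.81 ± 0.10 and -4.69 ± 0.07. The adenine nucleotide carrier of muscle, Slc25a4, was lower (-2.96 ± 0.07) while its partner Slc25a5 differed by 0.11 ± 0.08, which did not pass the test.

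Calcium handling and electrical genes were lower on balance. Of 33 tested genes of excitation-contraction coupling 21 were lower and 10 higher (unscaled 15 and 16), with a median of -0.87 that shrank to -0.05 without a scaling factor. The calcium pump Atp2a2 and its regulator Sln have no exonic base free of other features and gave no value. Ryr2, the release channel of the calcium store, was at 507, 645 and 717 CPM in the lowest, median and highest embryonic heart and at 8122, 8400, 8520 and 8228 in sham hearts (-3.72 ± 0.08). Hrc, a calcium-binding protein inside the store, was lower (-4.15 ± 0.09), as was S100a1, which tunes the release channel (-4.61 ± 0.10). Cacna1h, a T-type calcium channel of embryonic and pacemaker muscle, moved the other way, from 15.9, 13.6, 13 and 14 CPM in sham hearts to 292 to 411 in embryonic hearts (4.54 ± 0.12).

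Among channels that shape the action potential 26 of 32 were lower and 5 higher, with a median of -2.33. Kcnip2, the subunit that builds the fast transient outward current of the adult mouse ventricle, was at 0.708, 1.04 and 1.5 CPM in the lowest, median and highest embryonic heart. In sham hearts it was at 571, 453, 532 and 554, about as wide a gap as any in the list (-8.94 ± 0.12, adjusted p = 7.19e-22). Kcnv2, a potassium channel subunit that is silent on its own, was lower (-6.42 ± 0.20). The pacemaker channel Hcn2 was lower (-6.15 ± 0.13), and so was the muscle sodium channel Scn4a (-5.71 ± 0.15), with sham heart 3 at 98.9 CPM and the other 3 at 148 to 151.

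Most tested genes of energy metabolism were lower, with exceptions. For fatty acid uptake and oxidation 33 of 38 genes were lower and 4 higher (median -2.81), and the list held 0.350% ± 0.0155 of embryonic counts and 1.74% ± 0.0235 of sham counts. Lpl, the lipase that frees fatty acids from lipoproteins, was at 99.0, 126 and 142 CPM in the lowest, median and highest embryonic heart and at 3953, 4080, 4103 and 4233 in sham hearts (-5.04 ± 0.08). Acsl1, which activates fatty acids (-5.27 ± 0.07), Dgat2, which stores them as triglyceride (-6.30 ± 0.10), and Ucp3, a mitochondrial carrier of oxidative muscle (-8.52 ± 0.20), were lower. Plin5, the lipid droplet coat protein, had 1 count in the embryonic libraries and 255 in the sham libraries, but only 5.0% of its exonic bases lie outside other features. Pdk4, which holds glucose carbon out of the citric acid cycle, was at 27.6 to 37.7 CPM at E13.5 and at 535, 316, 824 and 585 in sham hearts (-4.06 ± 0.21), widely spread among the sham hearts but never near the embryonic range. Pdk3 was higher (5.86 ± 0.27). Dgat1, at 29.1 ± 2.56 and 32.0 ± 3.11 CPM, did not pass the test (-0.14 ± 0.09).

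Of 52 genes of oxidative phosphorylation 50 were lower and 2 higher, with a median of -2.40, and together they held 1.32% ± 0.0982 of embryonic counts and 3.68% ± 0.0958 of sham counts. Ndufa5 had 54.2, 64.0 and 79.1 CPM in the lowest, median and highest embryonic heart and 579, 498, 625 and 598 in sham hearts (-3.12 ± 0.09). Another complex I subunit, Ndufb10, was lower by the same margin (-3.11 ± 0.08). The largest falls belonged to the muscle forms of cytochrome oxidase, Cox8b (-5.89 ± 0.13), Cox7a1 (-5.19 ± 0.10) and Cox6a2 (-4.23 ± 0.13). The 2 genes that were higher, Cox6a1 (0.81 ± 0.06) and Cox8a (0.62 ± 0.10), are the widespread forms of 2 of the same subunits. Creatine kinase of mitochondria, Ckmt2, was at 1.85 to 4.54 CPM at E13.5 and at 2490 to 2749 in sham hearts (-9.68 ± 0.14), and the cytosolic muscle form Ckm was lower (-4.90 ± 0.08).

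Regulators of mitochondria followed, with 29 of 34 lower, 3 higher (unscaled 10 and 19) and a median of -1.26. Ppara, the nuclear receptor that switches on fatty acid oxidation, was at 5.12, 6.07 and 7.32 CPM in the lowest, median and highest embryonic heart and at 126, 103, 97.8 and 118 in sham hearts (-4.16 ± 0.09). The kinase Pink1, which marks damaged mitochondria, was lower (-3.96 ± 0.07), and so was the fusion protein Mfn2 (-2.95 ± 0.06). Use of ketones and branched-chain amino acids gave 23 of 26 lower and 1 higher (median -2.06), including the ketone enzymes Oxct1 (-2.93 ± 0.09) and Bdh1 (-2.96 ± 0.13).

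Of 28 genes of oxygen handling and the hypoxia response 17 were lower and 9 higher (unscaled 14 and 11), with a median of -0.61 that turned to 0.22 without a scaling factor. Myoglobin (Mb), which stores oxygen in muscle, was at 140, 183 and 215 CPM in the lowest, median and highest embryonic heart and at 25602, 27775, 23960 and 25359 in sham hearts (-7.15 ± 0.11). Cytoglobin (Cygb) was lower (-4.98 ± 0.11). Hif3a, a member of the hypoxia-inducible factor family, went the other way, from 9.27, 1.42, 4.08 and 11.4 CPM in sham hearts to 247 to 284 in embryonic hearts (5.30 ± 0.33). For antioxidant enzymes 20 of 30 were lower and 7 higher (unscaled 10 and 17; median -1.23), among them extracellular Sod3 (-6.96 ± 0.19), Nqo1 (-4.48 ± 0.14) and the glutathione transferase Gstm1 (-4.36 ± 0.09), with mitochondrial Sod2 at -3.11 ± 0.08. Autophagy genes and muscle ubiquitin ligases were lower in 32 of 38 and higher in 3 (unscaled 11 and 25; median -1.56). Among the furthest were the Asb ligase subunits of muscle, Asb15 (-8.15 ± 0.21) and Asb14 (-7.01 ± 0.12), and the sarcomeric ligase Trim54 (-5.55 ± 0.10).

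Signals of growth and patterning were mostly higher. Among secreted growth factors and morphogens 31 of 49 were higher and 12 lower (median 1.17). Igf2, the growth factor of the fetus, was at 4186, 5268 and 5547 CPM in the lowest, median and highest embryonic heart and at 26.3, 15.6, 30.2 and 20.9 in sham hearts (7.79 ± 0.18). Bmp10, which sustains division of trabecular muscle, was at 63.3 to 79.7 CPM at E13.5 with 1 count in the sham hearts, a ratio of 2014 (95% interval 361 to 79548). Midkine (Mdk) was 7.13 ± 0.17 higher and the Wnt amplifier Rspo3 6.53 ± 0.31 higher. Fgf16, a growth factor of heart muscle, was lower at E13.5, at no more than 0.265 CPM against 22.4, 28.0, 29.1 and 23.6 in sham hearts (-7.48 ± 0.23). Tgfb3 did not pass the test (53.2 ± 10.6 and 51.9 ± 3.6 CPM, difference 0.04 ± 0.13).

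Their receptors were higher in 24 of 52 and lower in 22 (unscaled 36 and 9), with a median of 0.09. Over all features 40.7% were higher and 35.6% lower, with a median of 0.12, so this list as a whole gave no direction. Fgfr2 was at 28.9 to 39.1 CPM in embryonic hearts and at 0.409, 0.142, 0.185 and 0.375 in sham hearts (6.78 ± 0.21). Robo1, a receptor for Slit guidance cues, was at 139 to 148 CPM and at 4.63, 4.40, 6.67 and 4.63 (4.83 ± 0.10), and Ror2, a receptor for Wnt5a, was 4.25 ± 0.13 higher. Notch1, at 259 ± 29.4 and 280 ± 14.6 CPM, did not pass the test (-0.11 ± 0.08).

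Of 62 developmental transcription factors 40 were higher and 12 lower (unscaled 51 and 4), with a median of 1.20. Hand1, needed for the outer curvature of the left ventricle, was at 33.3, 37.8 and 49.0 CPM in the lowest, median and highest embryonic heart with no count in any sham heart, at least 375-fold higher over a floor of 3 counts for the sham group. Sox11 was at least 399-fold higher on the same floor. Gata5, a factor of the endocardium, had 1 sham count and 42.2 to 56.6 CPM at E13.5, a ratio of 1331 (95% interval 239 to 52573), while its relative Gata4 differed by only 0.31 ± 0.07. Prrx2, a mesenchymal homeobox factor, was 6.25 ± 0.16 higher. Isl1, a marker of second heart field progenitors, was low at 2.22 to 8.73 CPM with 1 sham count (ratio 120, 95% interval 21.4 to 4742).

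Chromatin genes leaned higher, with 23 of 40 higher, 12 lower (unscaled 34 and 5) and a median of 0.58. Hmga2, a chromatin protein of fetal and stem cells, was at 30.0, 35.3 and 48.6 CPM in the lowest, median and highest embryonic heart without a sham count, at least 335-fold higher over a floor of 3 sham counts. Uhrf1, which carries DNA methylation through replication, was 4.22 ± 0.11 higher, the linker histone H1fx 4.2 ± 0.19, and Ezh2 3.16 ± 0.11. Splicing regulators gave 15 of 28 higher and 8 lower (unscaled 20 and 4), with a median of 0.63, beside 40.7% and 35.6% of all features. Ptbp1, the splicing repressor of undifferentiated cells, was at 263, 295 and 345 CPM in the lowest, median and highest embryonic heart and at 83.4, 77.3, 76.1 and 84.6 in sham hearts (1.91 ± 0.08). Mbnl1, which sets adult splicing in muscle, was lower (-1.82 ± 0.08). A2bp1 (Rbfox1), a splicing factor of neurons and muscle, was lower (-4.18 ± 0.12) and Mbnl3 higher (4.54 ± 0.28), on 47.9% and 44.6% of their exonic bases. Igf2bp1, an RNA-binding protein of embryos, was at 129 to 153 CPM with no count in the sham hearts, at least 1298-fold higher, on 47.0% of its bases.

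Imprinted genes, expressed from 1 parental copy and many of them active in fetal growth, were higher in 21 of 25 and lower in 2, with a median of 3.29. Their counts were 1.94% ± 0.0787 of embryonic libraries and 0.111% ± 0.00529 of sham libraries. Plagl1, a zinc finger factor, was at 824, 838 and 1085 CPM in the lowest, median and highest embryonic heart and at 4.63, 5.11, 6.11 and 3.75 in sham hearts (7.52 ± 0.13). Zdbf2 had 1 sham count (ratio 490, 95% interval 87.7 to 19350), and Usp29 none, at least 32.3-fold higher. Dlk1 had none either and was at least 47.8-fold higher, but on 15.6% of its exonic bases. Meg3 has no exonic base of its own and gave no value.

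Matrix genes were higher in 35 of 56 and lower in 14 (unscaled 45 and 7; median 1.17). The list held 2.92% ± 0.254 of embryonic and 1.05% ± 0.0487 of sham counts. Fbn2, a fibrillin of embryonic microfibrils, was at 734, 842 and 912 CPM in the lowest, median and highest embryonic heart and at 1.77, 1.70, 1.11 and 2.0 in sham hearts (8.95 ± 0.13). Cartilage-type collagens, known from valve precursors, were among the highest. Col2a1 had 1 sham count and 151 to 246 embryonic CPM (ratio 5159, 95% interval 926 to 203783), and Col9a1 no sham count (at least 217-fold). Hapln1, which links hyaluronan in the cardiac jelly, had 1 sham count (ratio 950, 95% interval 170 to 37534).

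Receptors and enzymes of neurohormonal signalling were lower in 26 of 42 and higher in 9 (unscaled 17 and 16), with a median of -0.78 that turned to 0.05 without a scaling factor. Adra1a, an alpha-adrenergic receptor, was at no more than 0.481 CPM at E13.5 and at 40.2, 26.7, 31.1 and 44.5 in sham hearts (-7.37 ± 0.28). Ace, which makes angiotensin II, was lower (-5.43 ± 0.18), as was the muscarinic receptor Chrm2 (-2.73 ± 0.11). The natriuretic peptides went opposite ways. Nppa was at 962, 1228 and 1443 CPM in the lowest, median and highest embryonic heart and at 268, 257, 291 and 264 in sham hearts (2.18 ± 0.09). Nppb was at 34.5 to 61.5 CPM at E13.5 and at 313, 151, 147 and 302 in sham hearts (-2.13 ± 0.25), with sham hearts 1 and 4 above sham hearts 2 and 3.

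Hormone receptors and their regulators were lower in 19 of 36 and higher in 13 (unscaled 20 and 14), beside 35.6% and 40.7% of all features. Their median of -0.35 turned to 0.47 without a scaling factor. Thrb, the beta receptor for thyroid hormone, was at 0.741, 2.07 and 3.47 CPM in the lowest, median and highest embryonic heart and at 44.2, 50.4, 48.3 and 46.3 in sham hearts (-4.45 ± 0.19). Klf9 (-5.75 ± 0.11) and Zbtb16 (-6.68 ± 0.20), both induced by glucocorticoids in many tissues, and the retinoid receptor Rxrg (-5.91 ± 0.10) were lower. Crabp1, which binds retinoic acid, had 1 sham count (ratio 637, 95% interval 114 to 25167), with embryonic heart 3 at 72.1 CPM and the others at 7.41 to 30.1.

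Guidance cues of axons gave 23 of 44 higher and 17 lower (unscaled 29 and 9), with a median of 0.42, beside 40.7% and 35.6% of all features. Among the higher were Epha3, with 1 sham count (ratio 585, 95% interval 105 to 23136), and Ephb2 (5.14 ± 0.65). For Ephb2 embryonic heart 3 was at 108 CPM and the others at 28.3 to 52.2. Genes of the primary cilium and the hedgehog pathway, which signals through it, were higher in 21 of 35 and lower in 6 (unscaled 29 and 3; median 0.61). The co-receptor Cdon (2.81 ± 0.09), the factor Gli3 (2.34 ± 0.14) and the ciliary kinesin Kif7 (2.30 ± 0.17) were the furthest.

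Antigen presentation and complement was the list with the lowest median, -3.20, with 33 of 34 genes lower and none higher. The sham reference itself stood high for this list, since 20 of 30 members tested were higher in sham than in unoperated adult hearts and 0 lower (median 0.59), beside 15.2% and 16.7% of all features. Cd74, the chaperone of class II molecules, was at 0.77, 1.48 and 9.70 CPM in the lowest, median and highest embryonic heart and at 547, 519, 513 and 557 in sham hearts (-7.08 ± 0.50). H2-Eb1 (-6.14 ± 0.14) and H2-Ab1 (-6.02 ± 0.34), which make class II chains, were lower, and H2-Aa too on 30.4% of its bases (-6.64 ± 0.28). Counts of these genes are uncertain where relatives share sequence. The complement protease C1s was lower (-6.38 ± 0.27). Among macrophage markers 13 of 16 were lower and 1 higher (unscaled 2 and 8), and their summed level was 246 to 360 CPM at E13.5 and 794 to 905 in sham hearts. Of 14 tested between the adult groups, 7 were higher in sham than in unoperated hearts and 0 lower. The scavenger receptor Cd163 was at most 0.218 CPM at E13.5 and at 39.3, 17.8, 37.0 and 37.4 in sham hearts (-8.42 ± 0.35), with sham heart 2 lowest, while C1qa was at -2.98 ± 0.10. The part of fewer macrophages in the fall of the list was not tested. In bulk tissue, fewer cells of a type and less RNA per cell cannot be told apart.

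**Figure D4:**
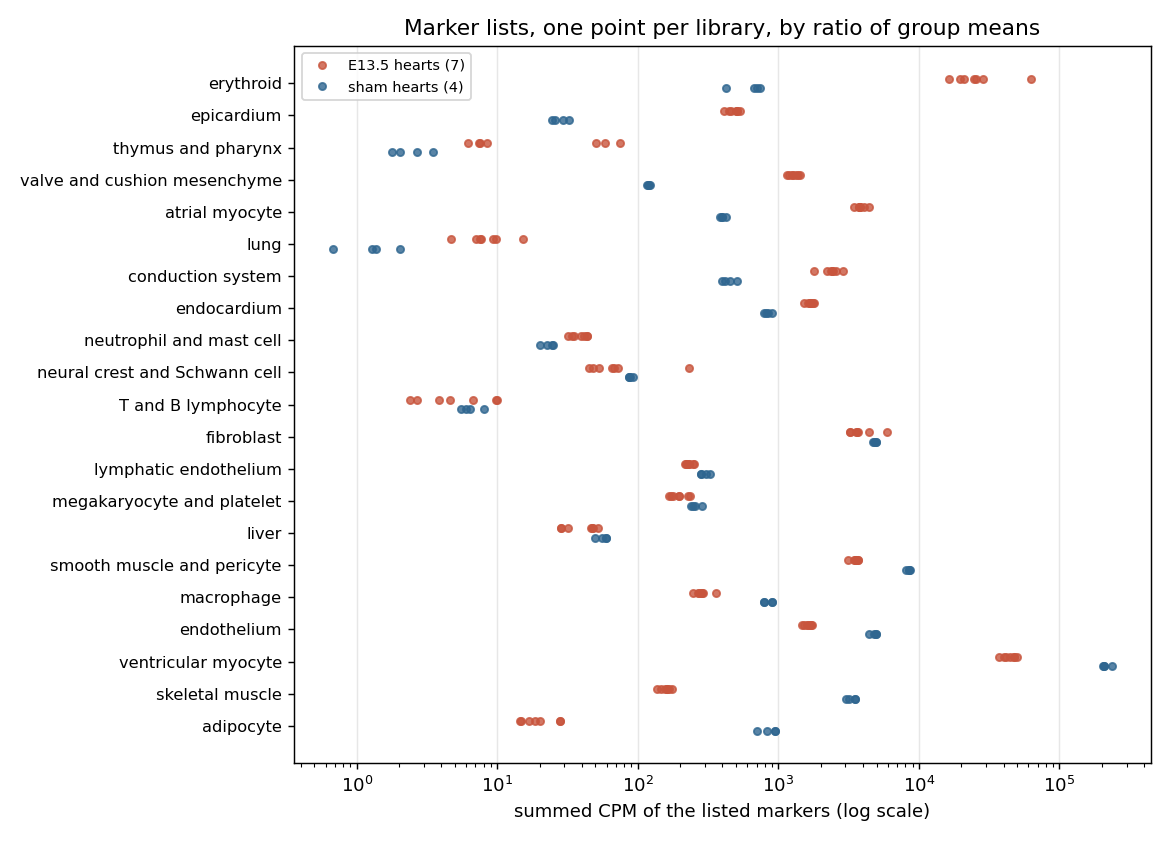
Summed CPM of each marker list on a log axis, one point per library (7 embryonic hearts in red, 4 sham hearts in blue), ordered by the ratio of group means. Erythroid and epicardial markers lie highest above sham, and adipocyte and skeletal muscle lists furthest below, the latter carried by Ckm, which heart muscle also makes. By calls the skeletal muscle list went the other way. Of 5 members tested, 4 were higher at E13.5 and 1, Ckm, lower (median 2.56).

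Markers of other cell types also differed. Erythroid genes were higher in 16 of 17 and lower in none, and their sum was 16438 to 28616 CPM in 6 embryonic hearts, 62707 in embryonic heart 4 and 425 to 739 in sham hearts. Hbb-y, the embryonic beta-type globin, was at 8594, 11880 and 35049 CPM in the lowest, median and highest embryonic heart without a count in any sham heart, at least 131266-fold higher over a floor of 3 sham counts. Hba-x, the embryonic alpha-type globin, was at least 45406-fold higher. Adult globins were present in both groups, and Hba-a1 was at 188, 197, 96.9 and 175 CPM in sham hearts and 1960 to 6945 in embryonic hearts (4.42 ± 0.46), uncertain because Hba-a1 has a near-identical copy. The blood group gene Kel, at 24.1 to 92.3 CPM with no sham count, was at least 440-fold higher. Leaving the globin and mitochondrial features out changed the totals to 7589 higher and 6650 lower.

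All 14 epicardial markers were higher (median 6.07, or 5.62 with genes lacking sham counts set at their bound), with summed levels of 409 to 529 CPM at E13.5 and 24.6 to 32.2 in sham hearts. Krt19 was at 49.6, 57.5 and 61.3 CPM in the lowest, median and highest embryonic heart and at 0.409, 0.142, 0 and 0.25 in sham hearts (7.93 ± 0.21). Bnc1 had 2 sham counts (ratio 357, 95% interval 98.6 to 2947), and Muc16 none, at least 19.7-fold higher. Endocardial markers were higher in 9 of 10 and lower in 1, markers of valve and cushion mesenchyme in 11 of 14 and 1. Cdh11, a gene of cushion mesenchyme that stands on the endocardial list here, was 5.63 ± 0.19 higher. Postn, a matrix protein of cushions and activated fibroblasts, was at 284, 373 and 417 CPM at E13.5 and 31.5, 33.4, 35.8 and 33.4 in sham hearts (3.44 ± 0.10). Atrial markers were higher in 11 of 12 and lower in 1, and summed to 3450 to 4400 against 383 to 424 CPM. Conduction system markers were higher in 8 of 12 and lower in 4, with the calcium channel subunit Cacna2d2 at 181 to 256 CPM against 3.84 to 5.86 (5.57 ± 0.16).

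Ventricular muscle markers summed to 37088 to 49726 CPM at E13.5 and 205248 to 234741 in sham hearts, and 10 of 12 were lower and 2 higher. None was at 0 in either group. Endothelial markers were lower in 10 of 13 and higher in 2 (unscaled 4 and 7). Fabp4, the fatty acid carrier of capillaries, was lower (-5.52 ± 0.21), as was the water channel Aqp1 (-4.18 ± 0.12), and the lineage receptor Flt1 less so (-2.05 ± 0.07). Of 14 fibroblast markers 5 were higher and 8 lower. The higher ones, listed after their values were seen, were Col1a1, Col1a2, Col3a1, Pdgfra and Tcf21, at 0.48 to 2.30, and the lower ones ranged from -1.27 to -5.90, among them Dpep1 (-5.90 ± 0.17), Pi16 (-4.64 ± 0.14) and Dpt (-3.95 ± 0.11). Smooth muscle and pericyte markers were higher in 4 of 13 and lower in 9, with Cnn1 (calponin), which embryonic heart muscle also makes, at 222 to 269 CPM against 3.52 to 6.00 (5.66 ± 0.12) and the pericyte channel Kcnj8 at -2.69 ± 0.08. Lymphatic markers, with 3 of 6 lower and 1 higher (unscaled 4 and 1, with upper-quartile scaling 2 and 3), had a median that changed sign without a scaling factor. Adipocyte markers were lower in 4 of 4 tested, with Cidea at 1.31 to 1.93 CPM against 38.2 to 43.9 (-4.67 ± 0.12). Of the 10 listed, 6 had too few counts, and Fabp4 is on this list as well as the endothelial one.

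Markers of other tissues were unevenly spread over the embryonic hearts. Summed neural crest and Schwann cell markers were 44.8 to 71.9 CPM in 6 embryonic hearts, 230 in embryonic heart 3 and 86.5 to 91.8 in sham hearts, and the list gave 2 of 13 higher and 3 lower (unscaled 5 and 1), with a median that changed sign under upper-quartile scaling and without scaling. Tubb3 (neuronal tubulin) was at 43.2 CPM in embryonic heart 3 and 5.77 to 8.38 in the others. Thymus and pharynx markers summed to 6.16 to 8.44 CPM in 4 embryonic hearts and 50.8 to 74.5 in 3, against 1.77 to 3.5 in sham hearts. Liver markers summed to 28.4 to 52.5 CPM at E13.5 and 49.2 to 59.4 in sham hearts, and 4 of 10 were at 0 in every sham heart. Of 5 tested, 2 were higher and 2 lower (unscaled 3 and 1), and the other 5 had too few counts. Afp, made by fetal liver and yolk sac, was at 0.529 to 12.7 CPM with no sham count (at least 57.5-fold higher). Lung markers summed to 4.72 to 15.2 CPM at E13.5. The part of these tissues in the calls for single genes was not tested. Without embryonic heart 3 the comparison gave 7464 higher and 6605 lower features.

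The largest changes among coding genes of at least 5 CPM mixed these sources. Beside the globins, troponin, light chain and matrix genes above, the top 12 higher genes included Hsd3b6, a steroid enzyme at 179 to 299 CPM in 6 embryonic hearts and 648 in embryonic heart 4 with no sham count (at least 2602-fold). They also included Igfbp2, which binds insulin-like growth factors and had no sham count (at least 588-fold). Capn6, a calpain family member, was at 218 to 297 CPM with 1 sham count on 41.8% of its bases. Among the 12 lower genes, Ces3, a carboxylesterase, was at no more than 0.265 CPM at E13.5 and at 168, 150, 157 and 170 in sham hearts (-10.54 ± 0.18). Tuba8, a muscle alpha-tubulin (-9.89 ± 0.16), Xdh, which makes uric acid (-9.60 ± 0.19), Rpl3l (-9.45 ± 0.21) and the endothelial surface protein Ly6c1 (-9.45 ± 0.15) followed.

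Depth in both groups made genes of 0.5 to 5 mean CPM measurable. Of 20031 coding features, 92 had at least 10 counts in every embryonic heart and none in any sham heart, and 5 showed the reverse. These are raw counts, and the group with none had 4 libraries for the 92 and 7 for the 5. Scaled library sizes were 9184458 to 15528796 at E13.5 and 5398245 to 7994707 in sham hearts. The 2 numbers therefore cannot be set directly against each other. Among the furthest of the low range, Rps6ka6, a ribosomal S6 kinase, was at 6.21, 7.51 and 8.20 CPM in the lowest, median and highest embryonic heart (at least 67.1-fold higher), and the neurotensin receptor Ntsr1 at 5.19 to 7.61 CPM (at least 58.0-fold higher), both with no sham count. Its relative Ntsr2 went the other way, with 2 embryonic counts and 9.68, 6.39, 12.2 and 7.38 CPM in sham hearts, a ratio of 363 (95% interval 99.5 to 3017). The interferon-induced chemokine Cxcl9 had no embryonic count and 5.04, 3.98, 6.48 and 4.38 CPM in sham hearts, at least 136-fold lower at E13.5 over a floor of 3 embryonic counts. Pla2g2d, a secreted phospholipase of immune cells, had no embryonic count either (at least 85.4-fold lower).

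Long noncoding RNA features from the NONCODE collection made up 5668 of the tested features, of which 2345 (41.4%) were higher and 1332 (23.5%) lower. Most overlap a coding gene, and the libraries do not keep strand, so reads of the 2 cannot be separated. Among the 1265 that overlap no coding gene, 505 (39.9%) were higher and 391 (30.9%) lower. Raw counts were also read for all 12146 NONCODE features that overlap no coding gene. Of these, 19 had at least 10 counts in every embryonic heart and none in any sham heart, and 6 the reverse. The limit given for the coding genes holds here too. Positions are on mm9, from the authors' annotation. The furthest higher, n278131 (chr2:180056059-180058852, minus strand), lies 986 bases from Gata5 and followed its pattern, with 10.9, 15.8 and 16.4 CPM in the lowest, median and highest embryonic heart and no sham count (at least 137-fold higher). Among the 5 furthest were also n264684 (chr13:98521066-98530918), at 31.1 to 73.4 CPM with 2 sham counts (ratio 725, 95% interval 201 to 5989), and n343163 (chrX:100219408-100222601), at 4.45 to 6.32 CPM with none (at least 50.4-fold higher).

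The furthest lower feature, n269715 (chr19:27335224-27336813), lies 11115 bases from the lipoprotein receptor gene Vldlr. It had no embryonic count and 8.45, 9.23, 13.9 and 7.88 CPM in sham hearts (at least 266-fold lower). Beside Mylk4, 2045 bases away, n287430 (chr13:32792702-32794504) was at no more than 0.481 CPM at E13.5 and at 90.0, 88.2, 82.4 and 97.1 in sham hearts (-9.41 ± 0.22). At 3196 bases from Adra1a, n289091 (chr14:67355495-67358904) was at no more than 0.218 CPM and at 43.6, 27.4, 26.9 and 43.7 (-8.53 ± 0.29). As for Adra1a, sham hearts 1 and 4 were above 2 and 3. At 4000 bases from Foxo6, n293833 (chr4:119963954-119976497) had 2 embryonic counts and was highest in sham heart 2, at 19.9 CPM against 9.54 to 11.7. At these distances an unannotated end of the neighbouring gene cannot be told apart from a separate transcript. The sham reference itself stood high for n293833 and n269715. On the log2 scale they were 3.30 ± 0.28 and 1.53 ± 0.26 higher in sham than in unoperated adult hearts. For n287430 (sham against unoperated 0.32 ± 0.13) and n289091 (0.64 ± 0.24) that difference did not pass the threshold. None of the 41 well-known long noncoding RNAs listed could be tested, because 29 have no row in the table, 8 no exonic base of their own and 4 too few counts.

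A sham heart is one of 2 kinds of adult reference in the series. Among 6 cardiac genes compared between them, Myh7 and Nppa were lower in sham hearts and Myh6 slightly higher (0.33 ± 0.08, adjusted p = 0.00399), and 20 of 30 antigen presentation genes were higher there. Between sham and unoperated adult hearts 11171 features were tested, of which 1695 (15.2%) were higher in sham and 1864 (16.7%) lower, 31.9% in all. These libraries also differ in depth, base quality encoding and age, which cannot be told apart from the operation. Both kinds held libraries labelled male with next to no Y-linked counts, and the part of these in the calls was not tested. On the scale of that comparison, Myh7 was at 407 ± 5.02 CPM in sham hearts (SD, n = 4), 2406 ± 192 at 6 weeks and 2757 ± 236 at 16 weeks (SD, n = 6 each), a log2 difference of sham from unoperated hearts of -2.66 ± 0.08, and no library of one kind overlapped the other. Nppa was at 195 ± 13.9 in sham hearts, 550 ± 354 at 6 weeks and 942 ± 272 at 16 weeks (-1.89 ± 0.51, adjusted p = 0.0124), with unoperated hearts spread from 71.9 to 1319. Set beside each other, the change at E13.5 against sham and against unoperated hearts was 4.11 and 1.58 for Myh7, and 2.18 and 0.42 for Nppa, the last not past the threshold (adjusted p = 0.25). The 2 comparisons share the embryonic libraries. Postn (3.44 and 3.24) and Myh6 (-3.55 and -3.09) gave similar values with either reference. Nppb did not differ past the threshold between sham and unoperated hearts (0.51 ± 0.51), and neither did Acta1, skeletal actin (0.70 ± 0.65).

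**Figure D5:**
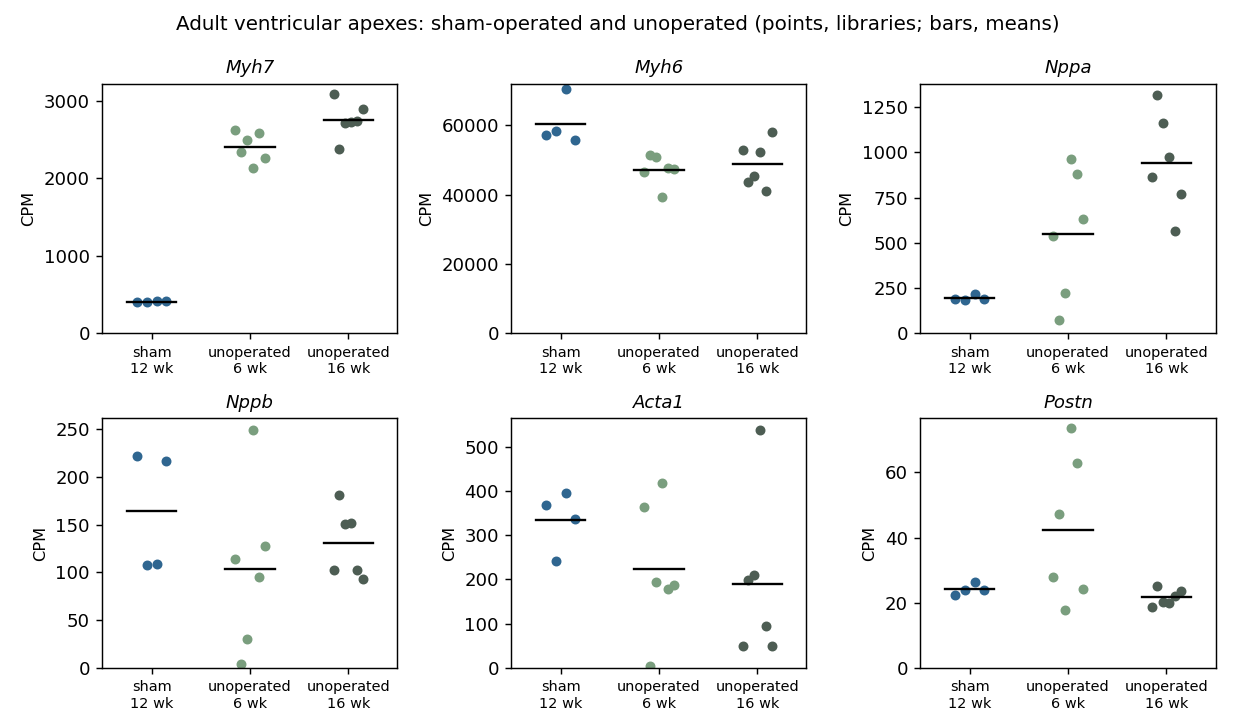
CPM of 6 genes in sham hearts (4), unoperated hearts of 6 weeks (6) and unoperated hearts of 16 weeks (6), one point per library with a bar at the mean, each panel on its own linear axis from 0. Myh7 lies between 403 and 413 in sham hearts and between 2138 and 3090 in unoperated hearts.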

How the data were processed

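Poly(A) RNA of single hearts was sequenced from libraries that do not keep strand, per the labels' protocols. The authors deposited whole-number counts per feature, and the submitters' processing notes name Bowtie, TopHat 1.3.0 and HTSeq with the build mm9. Only exonic bases that no other feature shares gave counts, judged from the authors' annotation: 6532 of 57683 features have none, and all of these hold 0 counts. The total line was left out, and each column sum equalled it.

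Features were filtered with edgeR's filterByExpr (minimum count 10, minimum total 15), scaled with TMM factors and tested with the quasi-likelihood test of edgeR 4.0.16 in R 4.3.3, 7 embryonic against 4 sham libraries, with Benjamini-Hochberg adjustment over all 18677 features tested and a threshold of 0.05. CPM per kilobase used each gene's own exonic bases. A fold over a group with no count used a floor of 3 counts over the group, and intervals for 1 to 3 counts are exact at 95% and cover counting error only. Over 5 seeded sets of simulated data, 348, 323 and 329 genes were changed by 1.5, 2 and 4 times, in either direction. The test recovered 41.1%, 70.0% and 88.5% of them, and 5.98% of the calls were false. Each set held 18677 features and thus few changed genes, whereas 76.3% of features were called in the data. These shares therefore do not carry over to the comparison itself.

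The members, gene lists and pairs were chosen with earlier results of these data known. Named genes are the 12 furthest coding genes of at least 5 CPM and the 6 furthest of 0.5 to 5 CPM in each direction, the 5 furthest noncoding features overlapping no coding gene in each direction, the 6 least changed coding genes of at least 50 CPM (not described), up to 5 called members of each gene list and 4 of each marker list, up to 2 uncalled members of each, the pairs (some genes this rule names, and 1 pair, are not reported here), and 6 genes of the adult reference. Nothing in the labels says that hearts came from separate litters, so p-values measure the spread between these samples. Alternatives were DESeq2 1.42.0, limma-voom 3.58.1, other scalings and filters, thinning to equal depth, a replicate block, a covariate for Y-linked counts and leaving out single libraries. Scaling by total counts alone was added after seeing the data.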

Additional observations from a re-analysis of the deposited data

Results flagged for a closer look

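A library was singled out where its gap to the nearest other library of its group exceeded Dixon's 95% limit, over the genes named above. Of 371 groups with any spread, 39 had such a library, 15 at E13.5 and 24 in sham hearts. In 12 of these the counts lay in 1 library alone, which always passes the limit, and of the other 359 groups 27 had such a library. Chance alone gives about 1 in 20 for independent, normally spread values. Genes of 1 library can move together, so these shares cannot be set directly against each other.

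Embryonic heart 4 stood out for Hbb-y at 35049 CPM (others 8594 to 14917), for Hba-x at 9717 (2894 to 5305) and for Hsd3b6 at 648 (179 to 299). Embryonic heart 3 stood out for Myh3 at 15.8 CPM (1.04 to 6.62), Crabp1 at 72.1 (7.41 to 30.1), Ephb2 at 108 (28.3 to 52.2), Gli3 at 76.6 (47.4 to 56.5), Tubb3 at 43.2 (5.77 to 8.38) and Robo1 at 148 (139 to 143). Embryonic heart 2 stood out for Cdkn1c at 857 CPM (501 to 630), Tead2 at 317 (252 to 272) and Plin5, with its only embryonic count, at 0.0927. Embryonic heart 1 stood out for Xdh at 0.837 CPM (0.222 to 0.481), Cdc7 at 30.1 (23.4 to 26.2) and Bnc1, the lowest, at 19.3 (25.6 to 28.9).

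Sham heart 2 stood out for Ror2 at 6.96 CPM (3.89 to 4.25) and Rxrg at 137 (113 to 117), and was lowest for Sod2 at 763 (881 to 901), Aqp1 at 692 (1036 to 1080), Cd163 at 17.8 (37.0 to 39.3) and Cox8a at 160 (212 to 219). Sham heart 3 stood out for Robo1 at 6.67 CPM (4.40 to 4.63) and Mbnl3 at 0.926 (0.273 to 0.375), and was lowest for Rrm2 at 0.741 (1.99 to 2.18), A2bp1 at 60.0 (70.7 to 72.4) and Scn4a at 98.9 (148 to 151). Sham heart 4 was lowest for Prrx2 at 0.375 CPM (0.545 to 0.57) and Uhrf1 at 5.38 (6.82 to 6.96).

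The other sham cases were genes whose counts lay in 1 sham library alone. These were Capn6, Bmp10 and Isl1 at 0.136 CPM in sham heart 1, and Cdc25c, Gata5, Hapln1 and Epha3 at 0.142 in sham heart 2. Col2a1 at 0.185 and Bnc1 at 0.37 were in sham heart 3, and Crabp1 and Zdbf2 at 0.125 in sham heart 4.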

How the results depend on the processing

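Under DESeq2, limma-voom, relative log expression scaling, a filter of at least 1 CPM in 4 libraries and thinning to the smallest total, all 196 genes named above kept their direction and their side of the threshold. Leaving out 1 library at a time gave 7336 to 7514 higher and 6488 to 6806 lower features. The ranges were 2221 to 2386 and 1252 to 1351 among noncoding features, and 481 to 510 and 370 to 394 among those overlapping no coding gene. For sham against unoperated hearts only sham libraries were left out, 1 at a time, which gave 1313 to 1601 and 1431 to 1563.

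Testing against a fold threshold lowered the counts to 3449 higher and 3059 lower, to 1024 and 664 for noncoding features and to 268 and 201 for those overlapping no coding gene, because a larger change is asked for. Without the filter, noncoding features numbered 4029 higher and 2940 lower, those overlapping no coding gene 967 and 860, and features higher in sham than in unoperated hearts 3355, with more features tested. With total counts and no scaling factor there were 12675 higher and 3279 lower features, 3978 and 681 noncoding ones and 822 and 209 overlapping no coding gene. Of the 14254 calls, 10876 then had the same direction and 1309 the opposite one. The sign of 6 named genes turned, to 0.71 for Notch1, 0.65 for Flnc, 0.69 for Dgat1, 0.07 for Acta1, 0.62 for Thra and 0.52 for Tead1. Upper-quartile scaling turned Notch1 to 0.05 and Dgat1 to 0.03, and 1 fit of all 27 libraries turned Notch1 to 0.01.

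Without the sham hearts that go against their sex label Myl1 turned to -0.13. With 1 library left out, uncalled genes ran from -0.04 to 0.10 (Cdkn1b), from -0.06 to 0.10 (Tgfb3) and from -0.05 to 0.16 (Myl1). For these turns the cause was not tested.

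With the replicate number as a block, 7208 features were higher and 6427 lower, and 1487 and 1564 for sham against unoperated hearts. Deviations of embryonic and sham libraries of the same number had correlations of 0.003, 0.119, 0.004 and 0.016. The 0.119, for the libraries numbered 2, was the highest between any embryonic and any sham library. The rest ran from -0.074 to 0.054. Whether the numbers pair the samples was not tested further. No named gene turned under the block, and 1 of 196 lost its call. Depth limits low genes: with 3 counts as the floor, a gene without a sham count is known only as at least a given fold higher.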
